A study of Mus musculus with 280 samples.

Results

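At the 2-cell stage, single mouse embryos sired by males on a low protein diet were compared with embryos sired by males on a control diet. Of 280 embryos in the deposited expression table, the 80 whose stage is given as 2-cell were taken, 41 with control sires and 39 with low protein sires. All were FVB, an inbred strain, and all were made by in vitro fertilization and cultured in KSOM, a medium for preimplantation embryos. Only the father's food differed by design, since the oocytes of both groups came from females on control diet. The labels give neither the protein content of the diets nor their duration.

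The embryos came from 16 sires, 8 per diet, and 17 oocyte donors, and they were processed on 6 plates that each held both diets. Sires whose identifiers share a stem were treated as a pair, which gave 8 pairs, lettered P to W here. No source says that such sires were matched, so the pairing is assumed. All 17 donors gave embryos to sires of 1 pair only, and 16 of them gave embryos of both diets. Pair P filled plate 1 with 13 control and 14 low protein embryos. Values within plate 1 therefore compare embryos of single sires and cannot separate diet from sire. Pairs S, T and V shared plate 4, and pairs R, U, Q and W made up plates 2, 3, 5 and 6. Pair V held 1 low protein embryo and pair W held 2 control embryos and 1 low protein embryo. The sire received the diet, so embryos of 1 sire are not independent tests of it, and the p-values over embryos below measure the spread between embryos.

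The 2-cell stage is when the mouse embryo takes over from the RNA stored in the oocyte. Maternal transcripts are cleared while a burst of transcription sets in, led by genes that use the long terminal repeats of the endogenous retrovirus MERVL as promoters. Genes for ribosomes and their assembly follow as the zygotic genome becomes active and are far more abundant by the next cleavage. Sperm carry fragments of tRNA, whose biogenesis and function the series addresses, and the father's diet is one setting in which such small RNAs have been studied.

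Values are TPM, each transcript's length-corrected share of its embryo's total, in which the number of reads is lost, and the depth of the libraries is unknown. The stage label was checked against marker genes. The 8 markers of the 2-cell stage summed to a median of 8041 TPM in control embryos (range 4574 to 16910) and 7418 TPM in low protein embryos (3240 to 16606), against 20.4 TPM in 4-cell embryos. The 9 markers of later stages summed to medians of 40.2 and 39.6 TPM, against 2660 TPM at the 4-cell stage. That gap came from Bhmt, Hand1, Tead4, Nt5c3b and Uqcrc1, whereas Gata3 (medians of 14.6 and 1.64 TPM) and Krt18 (5.17 and 3.79 TPM) were not higher at the 4-cell stage and Cdx2 was near 0 at both. Of 16 cumulus cell markers only Amhr2 and Cyp19a1 were in the table, with summed medians of 12.2 and 11.7 TPM, and 4-cell embryos, with a median of 176 TPM, held more. Of 13 sperm transcripts only Prm2 and Ldhc were in the table, with summed medians of 13.7 and 10.6 TPM. The ribosomal RNA precursor Rn45s took 15.5% and 15.3% of the total on average in the embryos of the control and the low protein sire of pair Q.

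No gene separated the diets after adjustment. In the limma fit with plate as covariate 0 of 10314 genes (0%) had an adjusted p under 0.05, while 431 genes (4.18%) were lower and 286 (2.77%) were higher with low protein sires at an unadjusted p under 0.05. The median log2 fold change over all genes was 0.02. The 95% interval of the fold change lay within 1 log2 unit on either side of 0 for 9423 genes (91.4%), and within 0.5 for 4074 (39.5%). For the other genes a difference of that size stayed inside the interval at this number of embryos. These intervals take embryos as units, so they do not give the precision of a difference between sires. The log2(TPM + 1) scale also understates changes of low genes, so for them such an interval does not exclude a larger change in TPM. The smallest adjusted p, 0.0739 by limma, belonged to Enpp1, an enzyme that makes pyrophosphate, which is named here after its values were seen. Its transcript was at 0 in 29 of 41 control embryos and in 8 of 39 low protein embryos, with means of 0.620 ± 1.31 and 2.37 ± 2.41 TPM (SD). Its adjusted p passed the threshold in 3 alternatives, at 0.0121 with a pseudocount of 0.1, 0.0239 without pair U and 0.0310 without pair T. Over sire means with the sire pair as a block it was 0.612 by limma. The smallest limma adjusted p of any gene was 0.969 without pair P and 0.979 with the sire as a random block. Over sire means without pairing it was 0.9999.

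Of the genes lower with low protein sires that averaged 5 TPM or more in either group, Il6ra had the smallest p, and the 12 of smallest p are given here. Il6ra, the receptor chain that binds interleukin 6, stood at 14.6 ± 15.3 TPM (SD, n = 41; lowest 0, median 10.2, highest 84.5) with control sires. With low protein sires it stood at 8.06 ± 7.54 TPM (n = 39; 0, 7.82 and 34.6). The groups overlapped over most of their range, and the embryos above 34.6 TPM all had control sires. The log2 fold change was -0.97 ± 0.22 (SE, limma adjusted p = 0.228), with -0.81 within plate 1 and -1.78 within plate 4.

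Pitpnb, a carrier of phosphatidylinositol between membranes, ranged from 1.57 to 269.9 TPM around a median of 19.9 with control sires. With low protein sires it ranged from 0 to 196 TPM around 14.3, and 7 embryos were at 0. Its log2 fold change was -1.32 ± 0.39 (limma adjusted p = 0.599). Apoc2, the apolipoprotein that activates lipoprotein lipase, had a median of 12.8 TPM (0 to 120.0) with control sires and 7.80 TPM (0 to 56.9) with low protein sires, a log2 fold change of -1.16 ± 0.35. Ube2v1, a partner of the enzyme that builds lysine 63 ubiquitin chains, had medians of 70.4 TPM (10.3 to 281) and 56.1 TPM (14.7 to 297), a log2 fold change of -0.53 ± 0.16. Apoc2 and Ube2v1 had a lower mean log2 value with the low protein sire in 8 of 8 pairs. Ranges of the groups coincided for Ube2v1, and the difference lay in the middle of the distribution.

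The other 8 genes of this direction had log2 fold changes between -0.99 and -0.38. Eif3h, a subunit of the initiation factor that prepares the small ribosomal subunit, had 156 ± 104 and 121 ± 61.1 TPM (-0.38 ± 0.10). Slc1a5, a glutamine transporter, had 17.99 ± 16.7 and 10.99 ± 12.9 TPM (-0.91 ± 0.27). Ppp1cc, a catalytic subunit of protein phosphatase 1, had 67.2 ± 40.96 and 46.3 ± 27.2 TPM (-0.53 ± 0.16). Rfxank, a factor of class II histocompatibility promoters, had 9.09 ± 10.2 and 5.55 ± 6.18 TPM (-0.73 ± 0.21). Zbtb8a, Tbc1d12 and 4933434E20Rik stood at 11.6, 9.30 and 214 TPM on average with control sires and at 5.33, 5.35 and 163 TPM with low protein sires. D1Pas1, at 25.7 and 19.1 TPM, is a close copy of the RNA helicase gene Ddx3x, so its reads cannot be assigned with certainty.

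Of the genes higher with low protein sires that averaged 5 TPM or more in either group, Cisd2 had the smallest p. Cisd2, an iron-sulfur protein of mitochondrial and endoplasmic reticulum membranes, had a median of 39.6 TPM (20.1 to 90.1) with control sires and 52.4 TPM (21.3 to 103) with low protein sires. It was detected in every embryo, the ranges overlapped almost fully, and the log2 fold change was 0.39 ± 0.10 (limma adjusted p = 0.432), with 0.45 within plate 1 and 0.32 within plate 4. Msx1, a homeobox repressor, had a median of 4.52 TPM (0 to 164) with control sires and 12.5 TPM (1.20 to 230.1) with low protein sires. Msx1 was at 0 in 9 control embryos and in no low protein embryo, and its mean log2 value was higher with the low protein sire in 8 of 8 pairs (1.35 ± 0.34, limma adjusted p = 0.432). Pparg, the nuclear receptor of fat cell formation, was at 0 in 16 control embryos and 4 low protein embryos, with means of 4.90 ± 5.63 and 8.13 ± 6.31 TPM (1.02 ± 0.31).

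Nme3, a nucleoside diphosphate kinase, averaged 19.1 ± 13.97 and 32.2 ± 31.8 TPM (1.03 ± 0.30). Within plate 1 its log2 fold change was 0.04 and within plate 4 it was 2.03. Klc1, a light chain of the motor kinesin, averaged 16.6 ± 8.89 and 24.05 ± 9.73 TPM (0.61 ± 0.19). Clint1, an adaptor of clathrin coats, averaged 4.04 ± 2.95 and 6.17 ± 3.26 TPM (0.62 ± 0.20). Nudt16l1, Fam161a, Sh3glb2, Ccdc114 and Ccdc73 had log2 fold changes of 0.97, 0.73, 0.92, 0.79 and 0.65. Etohi1 was higher with low protein sires by its fit (0.54 ± 0.16) and its median (13.6 against 8.63 TPM), but its mean was lower (40.7 against 48.9 TPM), with a highest control embryo of 278 TPM against 228 TPM.

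Together the 12 genes with higher values held 61 values of 0 among the control embryos and 4 among the low protein embryos, a direction that their choice favours. Of the 61, Pparg held 16 and Msx1 held 9, while Cisd2 and Etohi1 held 0. Control embryos with fewer than 8000 genes at 1 TPM or more numbered 5 of 41, against 1 of 39 low protein embryos. The log2 fold changes of the 12 genes ran from 0.39 to 1.35, and from 0.39 to 1.28 with the number of genes detected as a further covariate. These ranges do not show how single genes moved. Whether the number of genes detected accounts for the values of 0 was not tested. Among the 24 genes, 23 had at least 6 of 8 sire pairs in the direction of the fit. The genes were chosen for their p in the same embryos, so these pair counts lend no separate support.

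**Figure D1:**
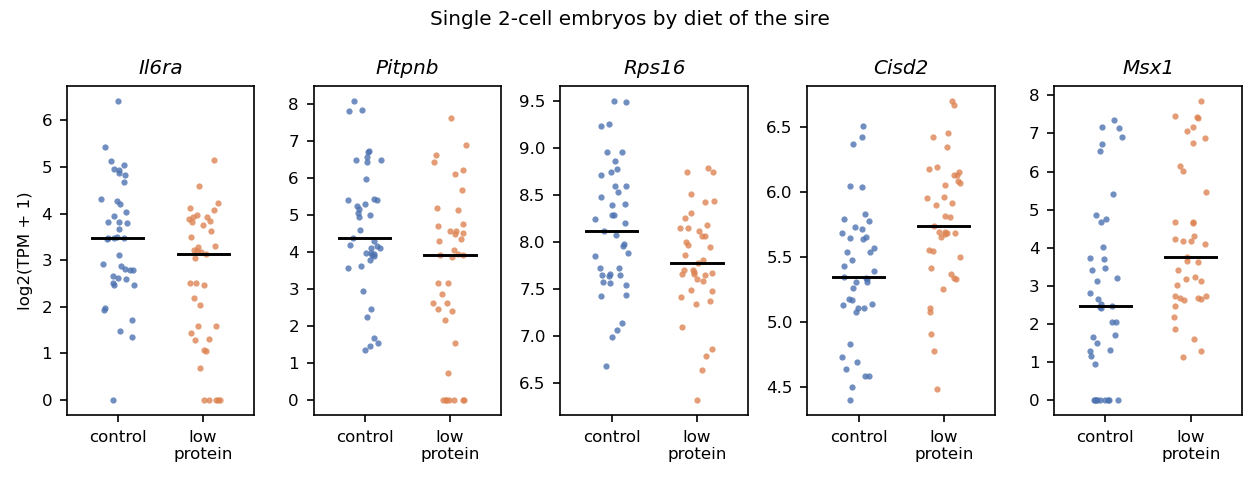
Expression in log2(TPM + 1) of 5 genes in single 2-cell embryos, by diet of the sire. Each point is 1 embryo (41 control, 39 low protein) and each bar is the group median; the groups overlap for every gene, and control embryos at 0 for Msx1 (9) have no counterpart with low protein sires.

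Most transcripts of the cytosolic ribosome had lower fitted values with low protein sires, and no single one passed adjustment. All 84 ribosomal protein genes of the list were tested, and 79 had a lower fitted value and 5 a higher one, where 46.3% of all genes had a lower one. At an unadjusted p under 0.05, 30 of 84 (35.7%) were lower and 0 were higher, beside 4.18% of all genes lower. Their median log2 fold change was -0.37, against 0.02 over all genes. In the small subunit 33 of 33 genes were lower, 18 of them at an unadjusted p under 0.05, with a median of -0.42. In the large subunit 46 of 51 were lower, 12 of them at that p, with a median of -0.24. Ribosomal protein genes have many processed pseudogenes, so reads may be split among copies and single values are uncertain.

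Rps16, a small subunit protein, stood at 315 ± 156 TPM (SD, n = 41; lowest 102, median 276, highest 722) with control sires. With low protein sires it stood at 237 ± 87.995 TPM (n = 39; 78.9, 219 and 441). Every embryo above 441 TPM had a control sire, and the lowest embryo, at 78.9 TPM, had a low protein sire. The log2 fold change was -0.38 ± 0.12 (SE, limma adjusted p = 0.646), with -0.04 within plate 1 and -0.70 within plate 4. Rpl24, a large subunit protein at the interface of the subunits, had medians of 94.3 TPM (29 to 834) and 68.5 TPM (16.1 to 290.1), a log2 fold change of -0.58 ± 0.21 (limma adjusted p = 0.706). Both Rps16 and Rpl24 were lower with the low protein sire in 8 of 8 pairs. They were chosen for their p in the same embryos, so these pair counts lend no separate support.

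More members are given here, and they too were chosen after their values were seen. Rplp0, a stalk protein of the large subunit, had medians of 979.6 TPM (335 to 3669) and 808 TPM (219 to 4632). Rps9 had medians of 98.4 TPM (23.7 to 330.4) and 65.8 TPM (17.1 to 333). The lowest fitted values were those of Rps27, with means of 116 and 57.7 TPM (log2 fold change -1.003, 95% interval -1.94 to -0.06), and Rpl38, with means of 56.8 and 32.5 TPM (-0.96, -1.71 to -0.21). The 5 members with a higher fitted value were Rpl22l1, Rpl22, Rpl3l, Rpl13a and Rpl7a, with log2 fold changes between 0.05 and 0.30. All 5 belong to the large subunit, and each interval included 0. Rpl22l1, at 0.30 by the fit on the log scale, had a lower mean with low protein sires, 8.56 against 9.62 TPM.

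Ribosomal protein messages are known for a run of pyrimidines at their first bases, the 5′ terminal oligopyrimidine tract, through which their translation follows nutrient signals. The feature compared here is a match to such a run near the annotated start site. The bases around the RefSeq start sites of members that differ in this feature, from 10 bases before the start to 20 bases from it on, are shown 5′ to 3′ (RefSeq, GRCm38.p6; chromosome 7, 3704031 to 3704060, plus strand for Rps9; chromosome 13, 90923112 to 90923141, plus strand for Rps23; chromosome 7, 28350679 to 28350708, plus strand for Rps16). Capitals mark a C followed by at least 4 bases that are C or T, where the C lies within 5 bases of the start.
Rps9: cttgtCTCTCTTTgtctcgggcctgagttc
Rps23: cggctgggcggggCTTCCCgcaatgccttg
Rps16: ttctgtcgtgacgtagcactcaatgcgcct
Of 63 ribosomal protein genes with a listed start, 29 (46%) held such a run, and of 7883 genes tested with a listed start 1836 (23.3%) did. Log2 fold changes of Rps9, Rps23 and Rps16 were -0.58, -0.39 and -0.38, and Rps16 has no match in this window. Rpl6, Rpl24, Rps13, Rps3, Rpl5 and Rplp0 have no match either, at -0.65, -0.58, -0.53, -0.48, -0.36 and -0.34. Whether a match goes with a deeper difference was not tested. Start sites were not measured in these embryos, so a missing match does not show that a message lacks the tract.

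Over embryos, the mean log2 value of the 84 genes was 6.23 ± 0.83 (SD, n = 41; lowest 4.79, median 5.93, highest 7.98) with control sires. With low protein sires it was 5.93 ± 0.68 (n = 39; 4.83, 5.78 and 7.54). The difference between the means is smaller than either SD, and the groups overlapped throughout. By pair the mean was lower with the low protein sire in 7 of 8 pairs, and by donor in 11 of 16. Pairs V and U differed by -1.23 and -1.16 log2 units and pair T by -0.70. Pairs P and W differed by -0.31 and -0.22, whereas pairs R and S differed by -0.05 and -0.03 and pair Q by 0.18 in the other direction. The deepest differences thus came from pairs with few embryos, 3 control embryos and 1 low protein embryo in V and 3 and 4 in U. Single embryos weighed on these values. Leaving out 1 embryo at a time moved pair U to between -1.49 and -0.59 and pair T to between -0.96 and -0.41, the latter without a control embryo with 6339 genes detected. Pair Q came to 0.05 without a low protein embryo with 7150 genes detected, and in pairs R, S and W the sign turned, to 0.28, 0.31 and 0.23, without 1 embryo each.

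**Figure D2:**
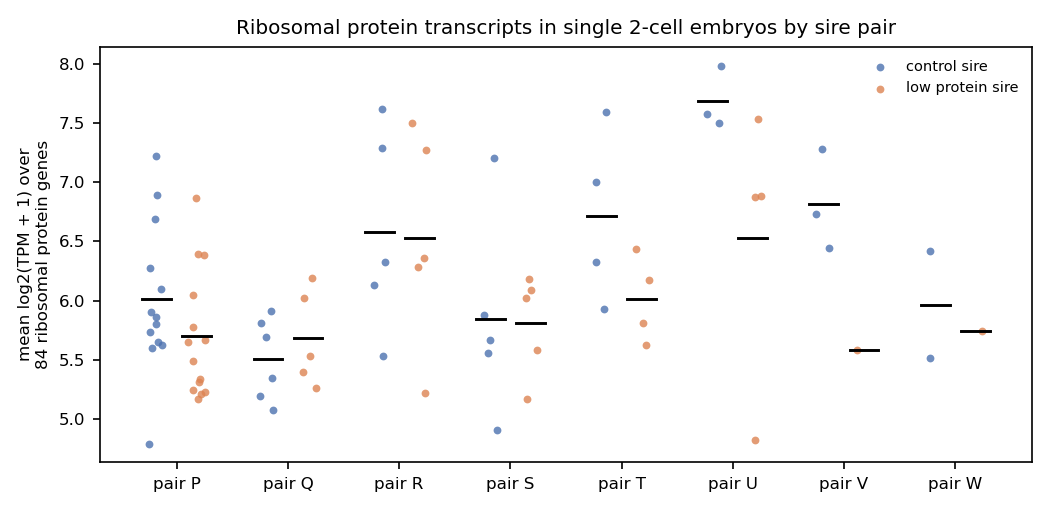
Mean log2(TPM + 1) over 84 ribosomal protein genes in each 2-cell embryo, by sire pair and diet of the sire. Points are embryos and bars are means per sire; the low protein mean lies below the control mean in 7 of 8 pairs, by 1.16 and 1.23 in pairs U and V and by 0.05 or less in R and S.

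The count of ribosomal protein genes lower at an unadjusted p under 0.05 depended on which embryos entered. It was 8 within plate 1 and 9 within plate 4, where 336 of 10179 and 158 of 10036 genes were lower at that p. It was 11, 12 and 15 without plate 4, plate 1 and plate 3 (pair U). Of all genes 405 of 10333, 223 of 10322 and 203 of 10275 were lower in those fits. Without pair Q it was 40, beside 409 of 10305 genes, and without pair V it was 18, beside 254 of 10313. With Rn45s, high in pair Q, taken out of the total it was 30, beside 424 of 10321 genes. The median log2 fold change kept its sign in all of these, at -0.34 within plate 1, -0.48 within plate 4 and between -0.41 and -0.27 with each plate left out.

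Genes of the nucleolus, where ribosomal RNA is made and ribosomes are assembled, also had mostly lower fitted values. Of 27 tested, 25 were lower, against 46.3% of all genes. At an unadjusted p under 0.05, 4 (14.8%) were lower, beside 4.18% of all genes, and the median log2 fold change was -0.29. Rrp9, a protein of the U3 small nucleolar particle that processes ribosomal RNA, had a median of 69.2 TPM (18.1 to 426) with control sires and 43.05 TPM (3.98 to 431) with low protein sires (-0.66 ± 0.22, limma adjusted p = 0.706). Nhp2, a protein of the particles that modify ribosomal RNA with pseudouridine, had medians of 109 TPM (29.6 to 2115) and 99.5 TPM (8.18 to 597), a log2 fold change of -0.68 ± 0.28. The ranges overlapped for both, and the means of Nhp2 were 258 and 139 TPM with 1 control embryo at 2115 TPM. Nop56 and Nop10 were the other members at that p, with log2 fold changes of -0.43 and -0.38. The mean over the list was lower with the low protein sire in 5 of 8 pairs and 10 of 16 donors.

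Translation initiation factors formed a list added after the data had been seen. Of 52 tested, 35 (67.3%) were lower, against 46.3% of all genes, and the median was -0.06. At an unadjusted p under 0.05, 10 (19.2%) were lower and 1 higher, beside 4.18% and 2.77% of all genes. With the sire as a random block 4 of 52 were lower, beside 1.95% of all genes. The list mean was lower with the low protein sire in 5 of 8 pairs and 9 of 16 donors. Eif3b, the scaffold of the same factor as Eif3h, had means of 9.45 ± 9.43 and 5.43 ± 6.14 TPM (-0.91 ± 0.28, limma adjusted p = 0.599), and its log2 fold change was -0.50 within plate 1 and -2.15 within plate 4. Eif4g1, the scaffold of the cap-binding complex, had means of 39.9 and 31.9 TPM. Eif1ax, which helps find the start codon, was the member higher at that p, at 265 and 285 TPM. Other lists of the protein cycle had medians near that of all genes. Mitochondrial ribosomal proteins had 4 lower and 1 higher of 75 and a median of 0.01, proteasome subunits 1 lower and 1 higher of 36 (0.01), and aminoacyl-tRNA synthetases 1 lower of 16 (0.03). These lists too were added afterwards, with the 8 chaperonin subunits, none of which passed that p and whose median was -0.13.

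**Figure D3:**
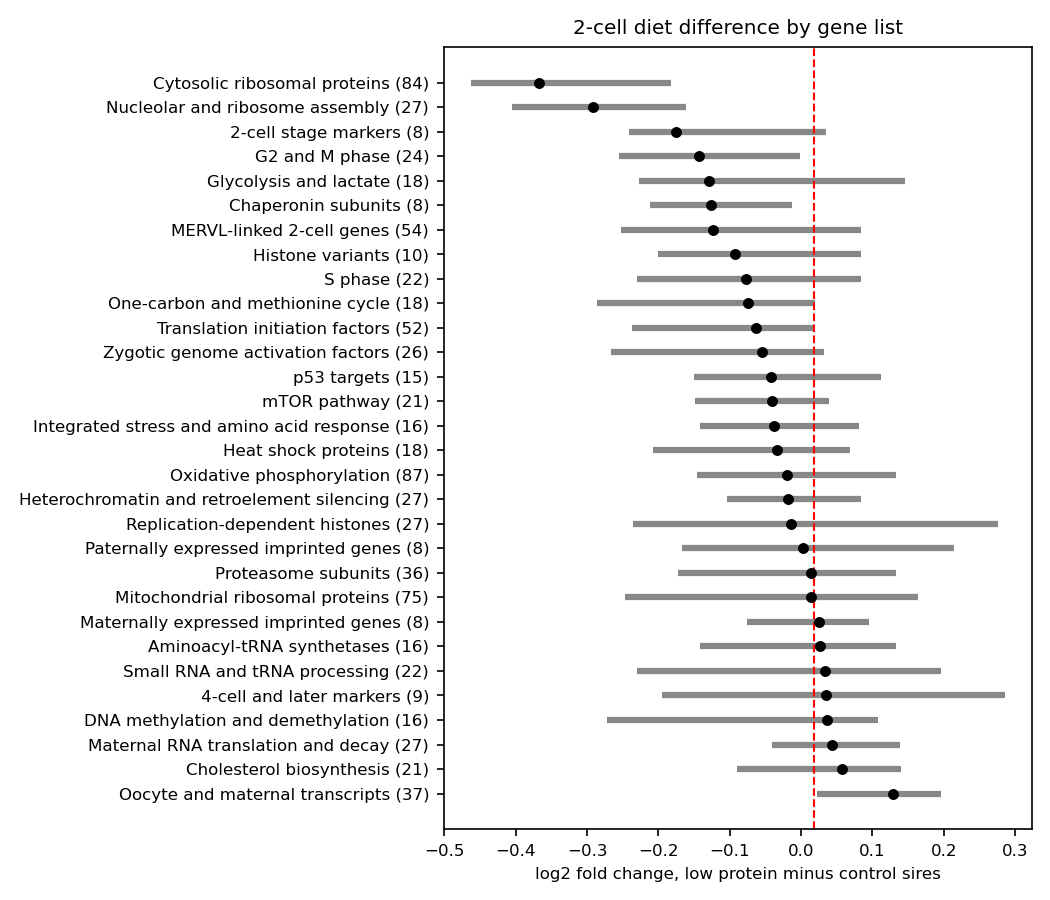
Median log2 fold change at the 2-cell stage (black points) with the interquartile range of members (gray bars) for each gene list with at least 8 genes tested, the number tested in parentheses. The dashed red line is the median of all genes, 0.02; ribosomal proteins (-0.37) and nucleolar genes (-0.29) lie lowest and maternal transcripts (0.13) highest.

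MERVL-linked genes had fitted values closer to 0. Of 54 tested, 34 (63%) were lower, against 46.3% of all genes, with a median log2 fold change of -0.12. At an unadjusted p under 0.05, 6 (11.1%) were lower and 0 higher, beside 4.18% of all genes lower. With the sire as a random block 1 of 54 was lower, beside 1.95% of all genes. Trim43b had a median of 148 TPM (8.01 to 863) with control sires and 111 TPM (5.59 to 834) with low protein sires (-0.65 ± 0.29, limma adjusted p = 0.706). Ddit4l had medians of 60.1 TPM (19.8 to 251) and 50.3 TPM (13.1 to 153), a log2 fold change of -0.38 ± 0.16. Groups overlapped over nearly their whole range for both.

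The genes most used as marks of the 2-cell state had fitted values on both sides of 0. Zfp352, a zinc finger gene, averaged 492 ± 204 and 411 ± 208 TPM (log2 fold change -0.32 ± 0.16), Tdpoz4 273 ± 166 and 206 ± 141 TPM (-0.46 ± 0.22), and Usp17lc, a deubiquitinase, 144 ± 76.3 and 120.3 ± 80.3 TPM (-0.32 ± 0.15). Zscan4c, which acts at telomeres, averaged 588 ± 418 and 601 ± 404 TPM, with a log2 fold change of 0.07 and a 95% interval from -0.32 to 0.46. Zscan4d averaged 732 ± 351 and 746 ± 372 TPM (0.07, -0.24 to 0.38), and Tcstv1 averaged 749 ± 296 and 779 ± 410.3 TPM (0.02, -0.19 to 0.24). The sign turned without plate 4 for Zscan4c, without plate 3 or 4 for Zscan4d and without plate 3, 5 or 6 for Tcstv1. Members of the Zscan4, Tdpoz, Usp17l, Tcstv and Trim43 families are near-identical, so values of single copies are uncertain. The mean over the list was lower with the low protein sire in 5 of 8 pairs and in 8 of 16 donors.

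Factors of zygotic genome activation had 4 lower (15.4%) and 1 higher of 26 at an unadjusted p under 0.05, beside 4.18% and 2.77% of all genes, and a median of -0.05. Obox6, an embryonic homeobox gene, had a median of 153 TPM (19.2 to 829) with control sires and 101 TPM (4.79 to 460.5) with low protein sires (-0.74 ± 0.30, limma adjusted p = 0.706). Dppa4, a chromatin protein of pluripotent cells, had medians of 106 TPM (24.3 to 938) and 89.9 TPM (12.8 to 506), a log2 fold change of -0.60 ± 0.24. Klf5 and Kdm5b were the other lower members, with log2 fold changes of -0.80 and -0.49, and Eif1ax, also a member here, was the higher one (0.24).

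Most maternal transcripts had slightly higher fitted values with low protein sires. Of 37 tested, 8 had a lower fitted value (21.6%, against 46.3% of all genes) and 29 a higher one, 0 passed an unadjusted p of 0.05, and the median log2 fold change was 0.13. The median was 0.03 within plate 1 and between 0.06 and 0.16 with each plate left out. Obox1, an oocyte homeobox gene, had a median of 2869 TPM (407 to 7787) and 3586 TPM (745 to 6528), with a log2 fold change of 0.31 ± 0.16. Rfpl4 had medians of 4668 and 6013 TPM (0.29 ± 0.16). Bmp15, a growth factor secreted by the oocyte, averaged 2238 ± 1275 and 2466 ± 1281 TPM (0.14, 95% interval -0.15 to 0.42). Obox5 averaged 7383 ± 2727 and 8022 ± 2557 TPM (0.11, -0.04 to 0.25). Dppa3, which guards methylation of the maternal genome, averaged 9521 ± 5348 and 9150.5 ± 4987 TPM (-0.07, -0.31 to 0.16). The list mean was higher with the low protein sire in 7 of 8 pairs and 12 of 16 donors. Genes of maternal RNA translation and decay had 0 of 27 at that p and a median of 0.04, with log2 fold changes of -0.19 for Cnot8, a deadenylase, and -0.28 for Ythdf2, a reader of methylated RNA.

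Cell cycle lists are set beside the 4.18% of all genes that were lower and the 2.77% higher at an unadjusted p under 0.05. Of 22 S phase genes 2 (9.09%) were lower and 0 higher (median -0.08). Of 24 genes of G2 and mitosis 2 (8.33%) were lower and 0 higher (median -0.14). Lower fitted values were found for 72.7% and 75% of these lists, against 46.3% of all genes. Cdc6, which loads the replicative helicase, had a median of 33.6 TPM (7.86 to 86.1) with control sires and 20.99 TPM (5.83 to 92.1) with low protein sires. Its log2 fold change was -0.57 ± 0.18 (limma adjusted p = 0.599). It was lower in 8 of 8 pairs, a count that its choice by p favours. Orc1, of the origin recognition complex, had a log2 fold change of -0.54. Cdk1, the mitotic kinase, had -0.42 and Cdca8, of the chromosomal passenger complex, had -0.30. Of 27 replication-dependent histone genes 1 was lower (Hist1h2ao, -0.68) and 1 higher (Hist1h1e, 0.61), and among the 10 histone variants H2afv was lower (-0.41) and H1f0 was at 0.23.

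Metabolic and stress lists are set beside the same shares, 4.18% of all genes lower and 2.77% higher at an unadjusted p under 0.05. Oxidative phosphorylation had 2 lower and 2 higher of 87 at an unadjusted p under 0.05 (median -0.02), with Ndufb10 at -0.82 and Ndufa6 at 0.61. Glycolysis had 0 of 18 (median -0.13), where Slc2a1 and Slc2a3, both glucose transporters, had log2 fold changes of 0.35 and -0.50. Cholesterol biosynthesis had 1 lower of 21, Fdft1 (-0.20), with Idi1 at 0.35. The amino acid and integrated stress response had 1 lower of 16, Ppp1r15a (-0.34), with Sesn2 at -0.52. The mTOR pathway had 0 of 21, with Nprl2, a nutrient-sensing inhibitor, at 0.40. One-carbon genes had 2 lower (11.1%) and 1 higher of 18, with Ahcy at 0.58. A lower fitted value was found for 13 of the 18, against 46.3% of all genes. Of 18 heat shock proteins only Hspb1 was past that p (-0.56), and Hspa8, a constitutive chaperone, averaged 466 ± 309.9 and 407 ± 229 TPM (-0.23 ± 0.16). Of 15 p53 targets none was, and Tnfrsf10b had a log2 fold change of -0.36.

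Genes of chromatin and small RNA pathways are set beside the same 4.18% of all genes lower and 2.77% higher. Of 16 DNA methylation genes 0 had an unadjusted p under 0.05. Dnmt1, the maintenance methyltransferase, averaged 31.6 ± 15.9 and 37.02 ± 14.98 TPM (0.22 ± 0.12), Tet3, the oxidase of the paternal genome, averaged 91.01 ± 32.1 and 101 ± 38.1 TPM (0.08 ± 0.10), and Tet1 had a log2 fold change of -0.30. Of 27 genes of heterochromatin and retroelement silencing 2 (7.41%) were lower, the deacetylase Hdac1 (-0.45) and the histone chaperone Daxx (-0.35). Of 22 genes of small RNA and tRNA processing 0 were past that p. Elac2, which trims the 3′ end of tRNA precursors, averaged 39.8 ± 25.6 and 49.7 ± 28.4 TPM (0.38 ± 0.21), Ago4 had -0.32, and Ago2, the slicing Argonaute, averaged 9.91 ± 4.397 and 10.3 ± 4.20 TPM (0.03, 95% interval -0.26 to 0.32).

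Among imprinted genes read from the father's copy 1 of 8 was lower and 1 higher at an unadjusted p under 0.05, beside 4.18% and 2.77% of all genes. These were Snurf (-1.27 ± 0.55) and Snrpn (1.04 ± 0.40), which overlap and share a transcript, so reads may be assigned to either and neither direction is certain. Within plate 1 the log2 fold changes were 0.18 and -0.46, the other way. Of the 8 genes read from the mother's copy 0 were past that p, with Kcnq1 at 0.35 and Igf2r at -0.24. The remaining listed genes were Gata3 at 0.29 and Cdx2 at 0.31 among later markers, Prm2 at -0.08 and Ldhc at -0.58 among sperm transcripts, Amhr2 at -0.60 and Cyp19a1 at 0.32 among cumulus markers, and Eif2s3y, the single Y-linked gene tested, at -0.03.

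With sires as units the diet difference was again below the threshold for every gene. Means per sire, weighted by the number of embryos, gave 0 of 10314 genes by limma, with 32 higher and 17 lower at an unadjusted p under 0.05. Only 2 ribosomal protein genes were among those lower. With the sire pair as a block 0 genes passed adjustment, and 329 genes were higher and 405 (3.93%) lower at an unadjusted p under 0.05, of which 32 were ribosomal protein genes. With embryos kept and the sire as a random block, whose correlation was 0.0737, 0 genes passed, and 145 were higher and 201 (1.95%) lower, among them 18 ribosomal protein genes.

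At the 4-cell stage, in other embryos of the same cross (42 control, 40 low protein), the fitted values of the ribosomal protein genes lay nearer 0. A lower fitted value was still found in 74 of 84 genes, where 58.5% of all genes had a lower one. At an unadjusted p under 0.05, 8 were lower, beside 319 of 9820 genes (3.25%). The median log2 fold change of the 84 genes was -0.08, against -0.04 over all genes. The interaction of diet and stage passed adjustment for 0 of 10845 genes by limma (smallest adjusted p 0.483, with 367 genes positive and 314 negative at an unadjusted p under 0.05). For 14 of the 84 ribosomal protein genes the interaction was negative at an unadjusted p under 0.05, and for 0 it was positive. A negative value means a lower diet fold change at the 2-cell than at the 4-cell stage. Levels were higher at the later stage, where the mean log2 value of the ribosomal protein genes was 9.97 ± 0.39 (SD) with control sires and 9.92 ± 0.39 with low protein sires. Rps16 averaged 2196 and 2198 TPM there, and Rpl24 1623 and 1570.4 TPM.

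**Figure D4:**
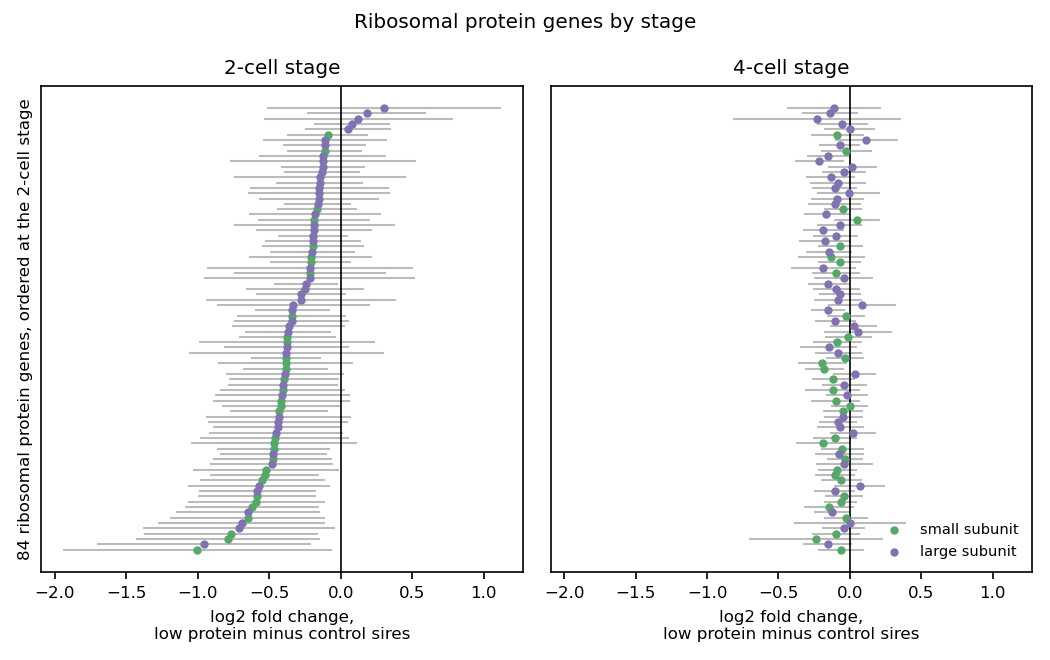
Log2 fold change (low protein minus control sires) of each of 84 ribosomal protein genes with its 95% interval (gray), at the 2-cell stage (left) and the 4-cell stage (right), in the same order. Fitted values lie below 0 for 79 genes at the 2-cell stage with a median of -0.37, and for 74 genes at the 4-cell stage with a median of -0.08.

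Of the 24 genes with the smallest p at the 2-cell stage 21 were tested at the 4-cell stage, and 0 had an unadjusted p under 0.05 there. Il6ra averaged 2.52 ± 2.47 and 2.31 ± 3.21 TPM at the 4-cell stage, Pitpnb 314 ± 89.5 and 325 ± 102 TPM, and Ube2v1 356 ± 60.2 and 375 ± 133 TPM. Cisd2 averaged 9.87 ± 4.99 and 12.7 ± 7.01 TPM. Msx1, at 0.935 and 0.218 TPM, and Pparg, at 0.0552 and 0.0622 TPM, were too low to be tested. The interaction had an unadjusted p under 0.05 for 20 of the 24 genes and passed adjustment for 0. Since these genes were chosen by their 2-cell p, that count is no separate support.

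The embryos of the groups did not differ detectably in complexity or in spread. Genes at 1 TPM or more numbered 9134 ± 742 (SD, n = 41) with control sires and 9254 ± 562 (n = 39) with low protein sires. The plate-adjusted difference of 79.5 genes had p = 0.484 in a two-sided permutation test that shuffled diet within plates, also 0.484 after Benjamini-Hochberg adjustment over the 2 tests of this kind. The median correlation of an embryo with the others of its diet averaged 0.804 ± 0.045 and 0.821 ± 0.041 (p = 0.223 by the same permutation test, adjusted p = 0.445). The lowest embryo lay at 0.621 with control sires and at 0.702 with low protein sires.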

How the data were processed

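Expression was analysed as the TPM that the authors deposited. Per the submitters' processing notes the reads were aligned with Bowtie to mm10; how TPM was computed is not given in the sources used here. Libraries came from a kit for single cells with Nextera tagmentation, per the labels. The table held 11076 genes, 15 of them under symbols turned into dates, and TPM totals per 2-cell embryo ran from 985115 to 995800. The lowest maximum of any gene was 5.87 TPM. Header rows gave sire and oocyte donor.

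Genes with TPM of 1 or more in 25% of the embryos were kept. limma 3.58.1 (R 4.3.3) was fitted to log2(TPM + 1) with plate as covariate, trend and robust moderation and Benjamini-Hochberg adjustment at 0.05; this scale understates changes of low genes. Single values were tested with 100000 permutations within plate (Python 3.11.15, numpy 2.4.6, pandas 2.3.3, matplotlib 3.10.9). A test on simulated data with 200 changed genes was run, and its outcome is not reported here. Ranges of values are given as lowest, median and highest embryo.

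Members, lists and tests were chosen with earlier results of these data known, and 5 lists were added later. Named are the 12 genes of smallest p per direction that average 5 TPM or more in either group, 2 genes of smallest p per list, and Zscan4c, Zscan4d, Zfp352, Tcstv1, Tdpoz4, Xist, Bmp15, Obox5, Dppa3, Hspa8, Dnmt1, Tet3 and Ago2 where kept; Xist was not kept, and some genes named by this rule are not reported. Alternatives were the pseudocount, filter, normalization, covariates, sires as units or blocks, embryo quality, and plates, pairs or sires left out.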

Additional observations from a re-analysis of the deposited data

Results flagged for a closer look

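Means per sire were searched for single sires far from the other 7 of their diet, over 62 groups of sires, and 6 stood apart. Chance is taken to mark about 1 in 20 groups, a rate that was not tested for means over unequal numbers of embryos. Scales are mean log2(TPM + 1) unless given otherwise, and the causes were not tested. The control sire of pair U, with 3 embryos, had the highest nucleolar mean, 6.328, against 3.884 to 4.994 in the other control sires, and without pair U the nucleolar and ribosomal medians stayed below 0. Embryos of both sires of pair Q, all on plate 5, held the largest shares of Rn45s, 15.53% for the control sire (others 0.4152% to 2.577%) and 15.32% for the low protein sire (others 0.2805% to 3.143%). Ccdc73 was highest in the control sire of pair W, at 4.275 (others 1.714 to 2.868), and 4933434E20Rik was lowest in the same sire, at 6.842 (others 7.587 to 7.927); this sire has 2 embryos. Klc1 was lowest in the low protein sire of pair V, at 2.568 (others 3.771 to 4.791), which is a single embryo.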

How the results depend on the processing

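The absence of adjusted calls held in all alternatives but those that called Enpp1 alone: 1 gene with a pseudocount of 0.1, and 0 to 1 with plates or pairs left out. Unadjusted counts moved more. Genes lower numbered 151 with no covariate, 201 with the sire as a random block, 704 with genes detected as covariate, 158 within plate 4 and 203 to 636 with plates or pairs left out, the lowest without pair U and then pairs P (223) and V (254). Genes higher numbered 180 with no covariate, 145 with the sire block and 225 to 436 with plates or pairs left out, the highest without pair Q. Lower ribosomal protein genes numbered 14 with no covariate, 18 with the sire block, 8 within plate 1, 9 within plate 4, 2 over sire means and 11 to 40 with plates or pairs left out, while their median stayed between -0.48 and -0.27 in 30 alternatives. Genes detected differed by -10.7 at 5 TPM, the other direction. Signs turned within plate 1 for Ndufa6 (-0.28), Ahcy (-0.18), Daxx (0.0118), Snrpn (-0.46), Snurf (0.18), Kcnq1 (-0.11), Tcstv1 (-0.0176) and Eif2s3y (0.57), and within plate 4 for Prm2 (0.41), Tcstv1 (-0.13), Tet3 (-0.0167) and Ago2 (-0.13). Eif2s3y was at 0.13 with no covariate, 0.39 with array weights and 0.0226 without the 4 embryos whose sire identifier carries a suffix of unknown meaning. With plates or pairs left out, log2 fold changes ran from -0.0459 to 0.191 for Zscan4c, -0.0285 to 0.232 for Zscan4d, -0.0167 to 0.0808 for Tcstv1, -0.0373 to 0.0868 for Ago2, -0.26 to 0.18 for Prm2 and -0.33 to 0.19 for Eif2s3y. The causes were not tested. Depth is unknown, so how far it limits low genes cannot be given. Alternatives within single plates, without these 4 embryos and with single embryos of a pair left out were chosen after seeing the data.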
